A study of Mus musculus with 10 samples.

Results

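The clustered protocadherins of the mouse lie side by side on chromosome 18, and the chromatin marks over them were read here along chr18:36940001-38010000 of the mm9 build. The interval is defined by its position, and it was chosen with earlier results of these data known. It holds 107 bins of 10 kb out of 253191 such bins on the autosomes and X, and 535 bins of 2 kb out of 1238311. All 10 libraries of the series were counted over it.

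Clustered protocadherins are cell adhesion proteins of neurons. Each neuron expresses its own choice of them, and each variable first exon has its own promoter, which gives a cell its surface identity and lets branches of one neuron recognise and avoid each other. The alpha and gamma families join a variable exon to shared constant exons, while each beta gene is a single exon with no constant part. H3K4me3 is a histone mark found at active and poised promoters, and H3K27me3 is laid down by Polycomb repressive complex 2 over silent genes. Regions that carry both marks in embryonic stem (ES) cells are called bivalent.

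The cells were 3 mouse ES lines grown on gelatin in ES-grade serum with LIF. XT67E1 has the strain label C3H/Pgk*129, and LF2 and E14 are 129/Ola. E14 is known as a male line, and the other two as female. H3K27me3 was immunoprecipitated from undifferentiated cells and from embryoid bodies (EBs), made by 10 days without LIF, in all 3 lines. XT67E1 was also treated with all-trans retinoic acid (atRA), for 4 days. H3K4me3 was measured in the same 3 states of XT67E1 alone. Each of these 10 groups is 1 library of fixed and sheared chromatin, so differences within a line have no replicate check. Their intervals cover counting error only, and variation between cultures or libraries could not be estimated. EBs are a mixture of cell types, and a change in every cell cannot be told apart from a change in the share of cells. No input library was analysed here. The labelled cell states were not checked against marker genes, because no mm9 annotation was used.

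The 3 H3K4me3 libraries held 2252395 reads each, the 3 H3K27me3 libraries of XT67E1 held 8380007 each, and the 4 of LF2 and E14 held 4531733 each. Levels are autosomal reads scaled to a total of 1000000 (RPM) per 10 kb, on which scale the mean autosomal bin stood at 4.21 in every library. The rest of chromosome 18 stood at 0.887 to 0.964 times that mean.

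Gene order in the RefSeq table of GRCm38.p6, used for names and neighbours only, runs from Hars2 and Zmat2 through 14 Pcdha, 22 Pcdhb and 21 Pcdhg protein-coding genes, 57 in all, to Diaph1. Slc25a2 and Taf7 stand between Pcdhb and Pcdhg. The 3 families were laid over the interval as zones placed approximately, from general knowledge of mm9 and not from an annotation. The alpha zone is chr18:37080001-37350000 (270 kb), the beta zone chr18:37420001-37690000 (270 kb) and the gamma zone chr18:37820001-38010000 (190 kb). A left flank of 140 kb, a first gap of 70 kb between alpha and beta, and a second gap of 130 kb between beta and gamma fill the rest. No peak was assigned to a single gene or exon. The protocadherins are tandem copies of similar sequence, so reads from near-identical stretches may have been lost or placed on another copy. No read of any of the 10 libraries fell in 11 of the 535 bins of 2 kb, of which 5 were in the alpha zone, 4 in the beta zone and 2 in the second gap.

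In ES cells of every line the level of H3K27me3 was above the autosomal mean in each of the 3 family zones. It was below that mean in the gaps and the flank. In undifferentiated XT67E1 the level was 8.92 RPM per 10 kb in the alpha zone, 9.93 in the beta zone and 12.96 in the gamma zone. The left flank stood at 2.26, the first gap at 4.08 and the second gap at 2.90, all below the autosomal mean. The gamma zone was thus 3.08 times the autosomal mean while its neighbouring gap was 0.688 times that mean.

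Undifferentiated LF2 held 8.78 in the alpha zone, 10.3 in the beta zone and 22.0 in the gamma zone. Undifferentiated E14 held 9.34, 8.71 and 19.1 in the same order. The alpha zone was nearly level among the lines, at 0.984 times XT67E1 in LF2 (95% interval 0.912 to 1.06, exact, counting error only) and 1.05 times in E14 (0.973 to 1.13). The beta zone was 1.04 times XT67E1 in LF2 (0.969 to 1.12) and 0.877 times in E14 (0.813 to 0.945).

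The gamma zone set the lines apart. Undifferentiated LF2 had 1.70 times the level of XT67E1 there (1.59 to 1.81) and E14 had 1.48 times (1.38 to 1.58). The gamma zone was the highest of the 3 in all 7 libraries. The gamma level was 1.45 times the alpha level in undifferentiated XT67E1, 2.51 times in LF2 and 2.05 times in E14. In EBs these ratios were 1.82 in XT67E1, 1.73 in LF2 and 1.60 in E14, a narrower range over the lines than before differentiation. Strain, line and library cannot be told apart in these differences, since each line has 1 library per state.

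**Figure D1:**
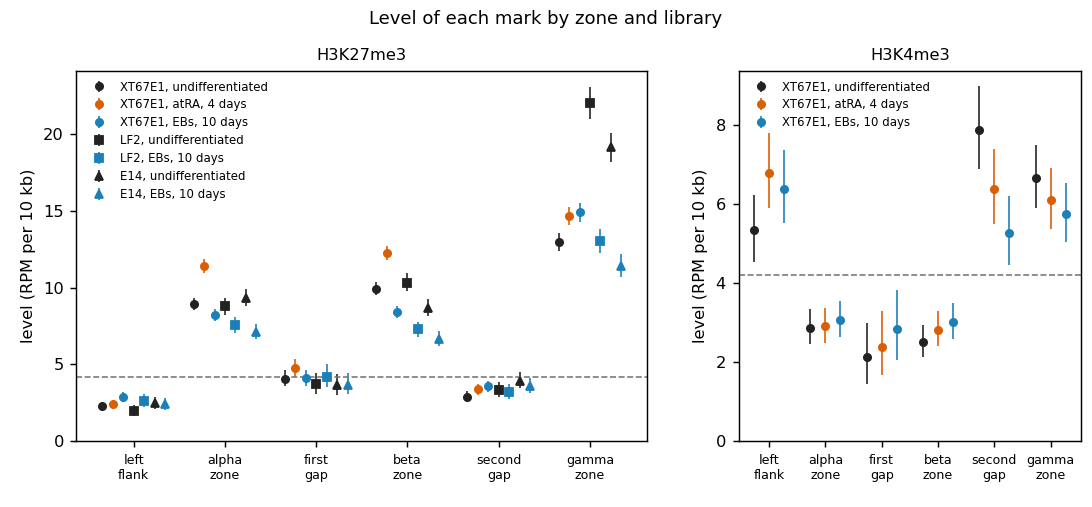
Level of H3K27me3 (left) and H3K4me3 (right) in RPM per 10 kb for each zone; each point is 1 library, bars are exact 95% Poisson intervals and the dashed line is the mean autosomal bin. All 7 H3K27me3 libraries stand above the dashed line in the 3 family zones, and the undifferentiated LF2 and E14 libraries stand highest in the gamma zone, at 22.0 and 19.1.

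Within a zone the mark lay in blocks with low stretches between them. A 10 kb bin was counted as rich where it reached 2 times the autosomal mean. In all 7 H3K27me3 libraries at once, 25 of the 107 bins were rich, against 2.05% of autosomal bins (4870 of 237573). The 25 comprised 7 in the alpha zone, 7 in the beta zone and 11 in the gamma zone, and none lay in the flank or the gaps. A further 29 bins (27.1%) stayed below the autosomal mean in all 7 libraries, where 37.3% of autosomal bins did. Among the 29 were 7 in the alpha zone, 5 in the beta zone and 0 in the gamma zone.

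The longest shared block was chr18:37840001-37930000 in the gamma zone, 90 kb in which the mean level ran from 17.1 in EBs of E14 to 32.6 in undifferentiated LF2. Its summit was chr18:37910001-37920000, the bin with the highest H3K27me3 of the interval when lines are weighted equally. That bin held 29.3 RPM in undifferentiated XT67E1, 33.2 after atRA and 28.0 in EBs. It held 50.6 in undifferentiated LF2 and 24.6 in its EBs, and 40.3 in undifferentiated E14 and 24.9 in its EBs. The 2 undifferentiated 129/Ola libraries were therefore the highest and the 2 EB libraries of the same lines the lowest.

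The longest block of the beta zone was chr18:37640001-37680000, 40 kb with mean levels of 12.8 to 22.9. In the alpha zone, chr18:37100001-37130000 ranged from 12.2 to 24.95 and chr18:37160001-37180000 from 15.5 to 24.7. These alpha blocks were followed by chr18:37190001-37240000, 50 kb inside the same zone whose mean level was 0.917 to 1.99 in the 7 libraries. H3K4me3 was also low there, at 0 to 2.32 RPM per 10 kb bin in undifferentiated XT67E1, where the median alpha bin held 2.32. Whether reads were lost from this stretch was not tested.

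The single richest alpha bin stood alone further on, at chr18:37300001-37310000. It held 18.6 RPM in undifferentiated XT67E1, 26.95 after atRA and 19.6 in EBs. It held 30.5 and 23.0 in undifferentiated and EB LF2, and 32.4 and 27.4 in undifferentiated and EB E14. Unlike the alpha zone as a whole, this bin was higher in both undifferentiated 129/Ola lines than in undifferentiated XT67E1. The next bin, chr18:37310001-37320000, held 5.66 to 8.25 RPM in the 7 libraries.

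The shape of the profile was much the same in all 7 libraries. Across the 107 bins, Pearson's r between pairs of H3K27me3 libraries ran from 0.864 to 0.976 and Spearman's rho from 0.895 to 0.957. These describe bins of 1 region that share copy number, mappability and base composition, and the bins are not independent.

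**Figure D2:**
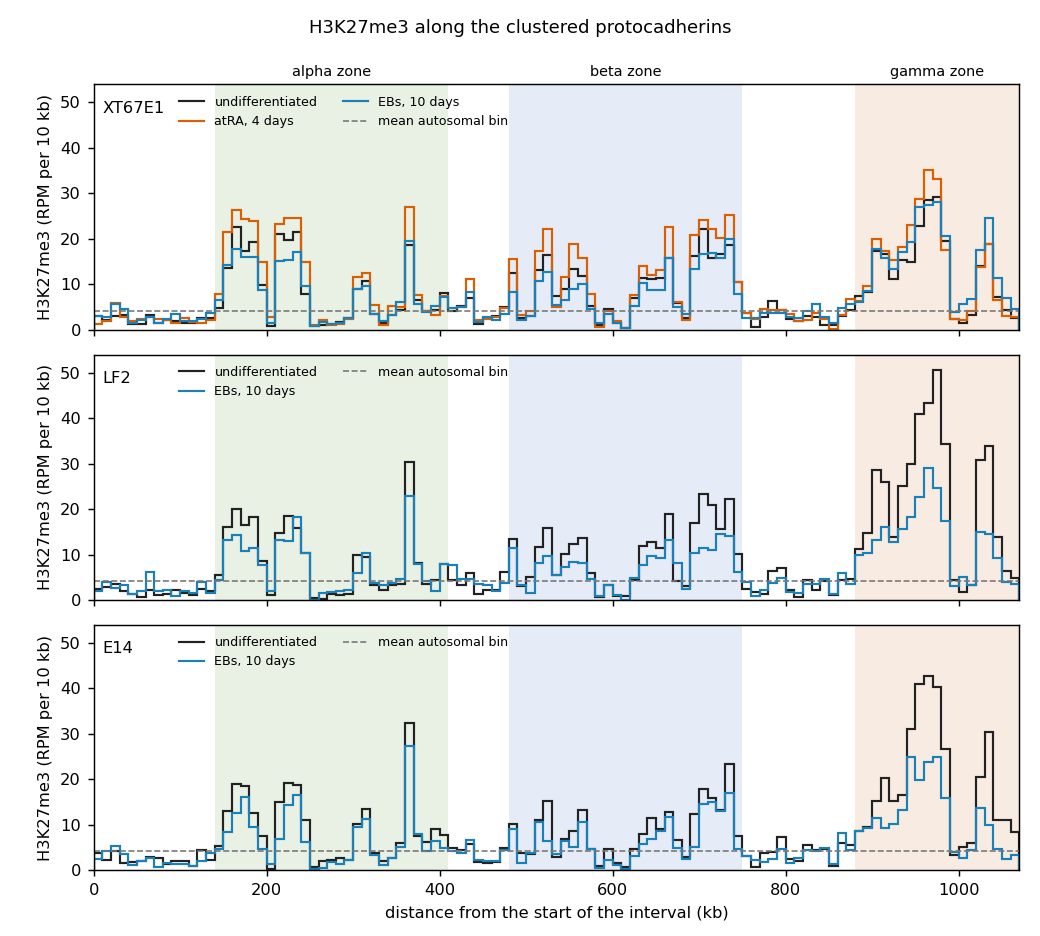
H3K27me3 in RPM per 10 kb bin against distance in kb from the start of the interval, 1 panel per line and 1 line per state; shading marks the 3 family zones and the dashed line the mean autosomal bin. The blocks stand at the same places in every panel, and the summit of the gamma block is at 50.6 in undifferentiated LF2 against 24.6 in its EBs.

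H3K4me3 had a different layout, with sharp peaks in the flank and the second gap, low peaks in the gamma zone, and none above threshold in the alpha or beta zones. The alpha zone held 2.87 RPM per 10 kb in undifferentiated XT67E1, 2.91 after atRA and 3.06 in EBs. The beta zone held 2.51, 2.82 and 3.02 in the same order. These 6 values were all below the autosomal mean. The gamma zone held 6.66, 6.11 and 5.76, which is 2.32, 2.10 and 1.88 times the alpha level (95% intervals 1.91 to 2.83, 1.72 to 2.57 and 1.54 to 2.30).

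Counted in 2 kb bins, with a bin called marked at 5 times the mean autosomal bin (10 reads), 0 of 135 alpha bins and 0 of 135 beta bins carried H3K4me3 in any of the 3 states. In the gamma zone 5 of 95 bins were marked in undifferentiated cells, 4 after atRA and 1 in EBs. The share of all autosomal bins marked was 1.39%, 1.21% and 1.28%. These counts depend on the threshold. The gamma bins chr18:37884001-37886000 and chr18:37984001-37986000 each held 10 reads in undifferentiated cells and 9 in EBs. At 3 times the mean, 12, 13 and 11 bins of the 3 zones were marked (2.63%, 2.43% and 2.77% of autosomal bins). At 10 times the mean it was 0 in each state. At fewer than 2 reads per mean 2 kb bin, a weak or narrow peak was not detectable at this depth.

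The tallest peaks were outside the family zones. In the second gap, chr18:37802001-37804000 held 75 reads in undifferentiated cells, 76 after atRA and 40 in EBs. In the left flank, chr18:36942001-36944000 held 68, 69 and 46 reads, and chr18:36952001-36954000 held 22, 33 and 29. H3K27me3 was sparse at all 3 of these bins, with 0 to 7 reads in the 3 XT67E1 libraries, where the mark's threshold was 21 reads.

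The highest alpha bin by H3K4me3 over the 3 states, chr18:37302001-37304000, held 8, 2 and 6 reads. It lies in the alpha bin richest in H3K27me3, for which it held 43, 65 and 33 reads in XT67E1. The highest beta bin, chr18:37634001-37636000, held only 2, 5 and 3 H3K4me3 reads beside 42, 48 and 28 H3K27me3 reads.

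**Figure D3:**
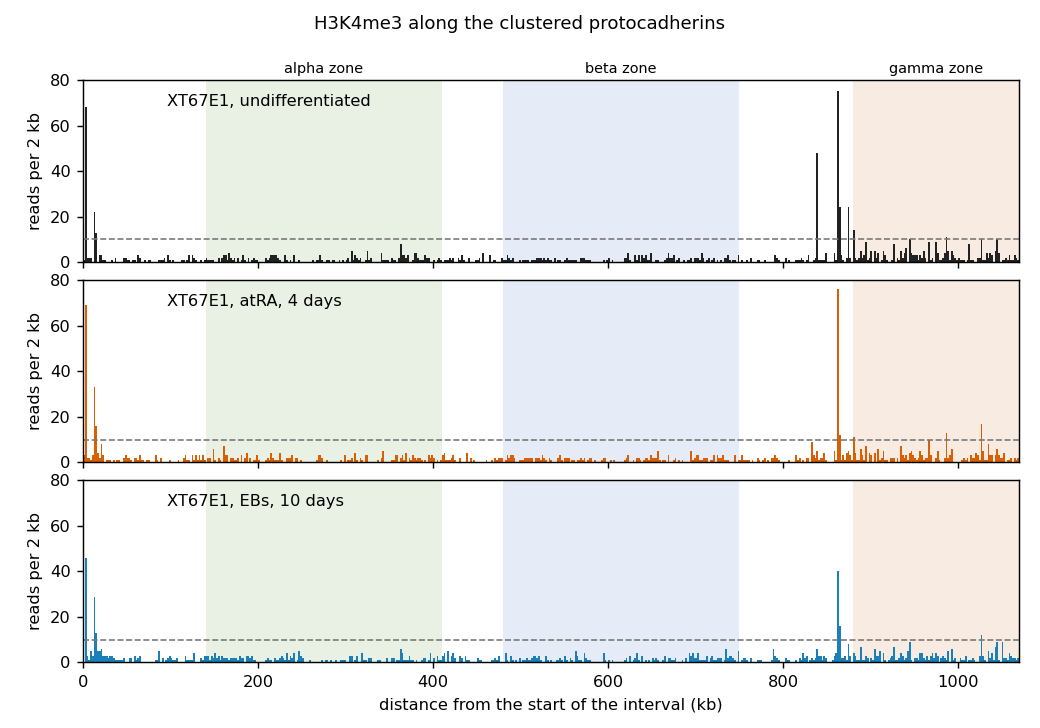
H3K4me3 reads per 2 kb bin against distance in kb from the start of the interval in the 3 states of XT67E1; shading marks the family zones and the dashed line is the threshold of 10 reads. No bar in the alpha or beta zone reaches the line, and the bar of 48 reads in the second gap of undifferentiated cells falls to 5 after atRA and 6 in EBs.

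Bins with both marks were found only in the gamma zone at these thresholds (H3K27me3 at 3 times the autosomal mean or more). There were 2 in undifferentiated XT67E1, 3 after atRA and 1 in EBs, out of 95, where 0.0961%, 0.139% and 0.137% of all autosomal bins carried both. The bin chr18:37966001-37968000 held both in all 3 states, with 10, 17 and 12 H3K4me3 reads and 41, 57 and 53 H3K27me3 reads. The bin chr18:37926001-37928000 held 11, 13 and 1 H3K4me3 reads while H3K27me3 stood at 51, 35 and 39. The bin chr18:37906001-37908000 held 9, 10 and 1 H3K4me3 reads with 48, 60 and 48 for H3K27me3. In the latter pair of bins the EB library had 1 H3K4me3 read each, with H3K27me3 above its threshold. These bins were listed because H3K4me3 reached its threshold in a library other than EBs, which favours a lower count in EBs. Their H3K4me3 reads were too few for EBs to be tested against undifferentiated cells, so a loss of H3K4me3 was not shown. The counts of doubly marked bins depend on the H3K4me3 threshold, since at 3 times the mean they were 8, 7 and 5 and at 10 times they were 0 in each state.

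H3K27me3 alone marked a large part of the zones at 2 kb. In XT67E1 118 of 365 zone bins passed in undifferentiated cells, 126 after atRA and 103 in EBs, against 2.87%, 3.44% and 2.00% of autosomal bins. In LF2 the number was 124 before and 89 after EB formation (autosomal 4.16% and 2.74%), and in E14 29.0% of zone bins passed before and 71 bins, or 19.5%, after (autosomal 2.29% and 2.67%). The gamma share differed in direction between lines, with 39 and then 43 of 95 bins in XT67E1, 51 and then 40 in LF2, and 45 and then 29 in E14.

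Retinoic acid treatment of XT67E1 was accompanied by higher H3K27me3 in all 3 zones, beyond counting error. The alpha zone went from 8.92 to 11.4 RPM per 10 kb, a log2 ratio of 0.36 (95% interval 0.27 to 0.45). The beta zone went from 9.93 to 12.2 (0.30, 0.22 to 0.38) and the gamma zone from 12.96 to 14.7 (0.18, 0.09 to 0.27). Of the alpha bins with at least 20 reads in both libraries together, 20 of 25 were higher after atRA, as were 21 of 25 beta bins and 13 of 19 gamma bins. Over all bins the median log2 ratio was -0.05, and 52.0% were below 0.

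Bins rich in H3K27me3 elsewhere in the genome rose to a like extent. Over 4845 autosomal bins outside the interval that were rich in all 7 libraries the median log2 ratio was 0.29, and over the 25 of the interval it was 0.28. Few single bins moved 2-fold with an interval that excludes 1. Of 102 bins tested, 2 were called higher (0.876% of all bins) and 1 lower (2.06%). The higher bins were chr18:37140001-37150000 in the alpha zone, from 7 to 23 reads, and chr18:37700001-37710000 in the second gap, from 6 to 20. The lower bin was chr18:36940001-36950000 in the left flank, from 24 to 10 reads. These 3 bins held few reads and lay outside the blocks.

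In EBs the alpha and beta zones fell in all 3 lines, while the gamma zone fell in LF2 and E14 and not in XT67E1. The alpha zone went from 8.92 to 8.19 RPM per 10 kb in XT67E1, from 8.78 to 7.55 in LF2 and from 9.34 to 7.12 in E14. The log2 ratios were -0.12 (95% interval -0.22 to -0.03), -0.22 (-0.35 to -0.09) and -0.39 (-0.52 to -0.26), with a mean of -0.24 ± 0.14 (SD, n = 3 lines). The beta zone went from 9.93 to 8.43, from 10.3 to 7.29 and from 8.71 to 6.68. Its log2 ratios were -0.24 (-0.33 to -0.15), -0.50 (-0.63 to -0.38) and -0.38 (-0.52 to -0.25), with a mean of -0.37 ± 0.13 (SD, n = 3 lines).

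The gamma zone went from 12.96 to 14.9 in XT67E1, a log2 ratio of 0.20 (0.11 to 0.29). It went from 22.0 to 13.04 in LF2 (-0.76, -0.87 to -0.65) and from 19.1 to 11.4 in E14 (-0.74, -0.86 to -0.63). The mean of -0.43 ± 0.55 (SD, n = 3 lines) was smaller than its own spread. In EBs the gamma levels were closer together, with LF2 at 0.875 times XT67E1 (0.813 to 0.942) and E14 at 0.767 times (0.710 to 0.827). The difference between lines has no test, because each line has 1 library per state. Scaled to bins of low coverage, the gamma ratio of XT67E1 was 0.10 (0.01 to 0.18) and that of LF2 -0.99. The XT67E1 ratio shares its undifferentiated library with the atRA ratio above.

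In the flank and gaps no line fell beyond counting error. The left flank went from 2.26 to 2.86 in XT67E1 (0.34, 0.09 to 0.58), from 1.98 to 2.60 in LF2 (0.39, 0.04 to 0.75) and from 2.48 to 2.39 in E14 (-0.05, -0.39 to 0.28). The second gap rose from 2.90 to 3.56 in XT67E1 (0.30, 0.07 to 0.52), and its log2 ratio was -0.04 (-0.35 to 0.26) for LF2 and -0.14 (-0.42 to 0.14) for E14. In the first gap the mean over lines was 0.07 ± 0.10 (SD, n = 3 lines).

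**Figure D4:**
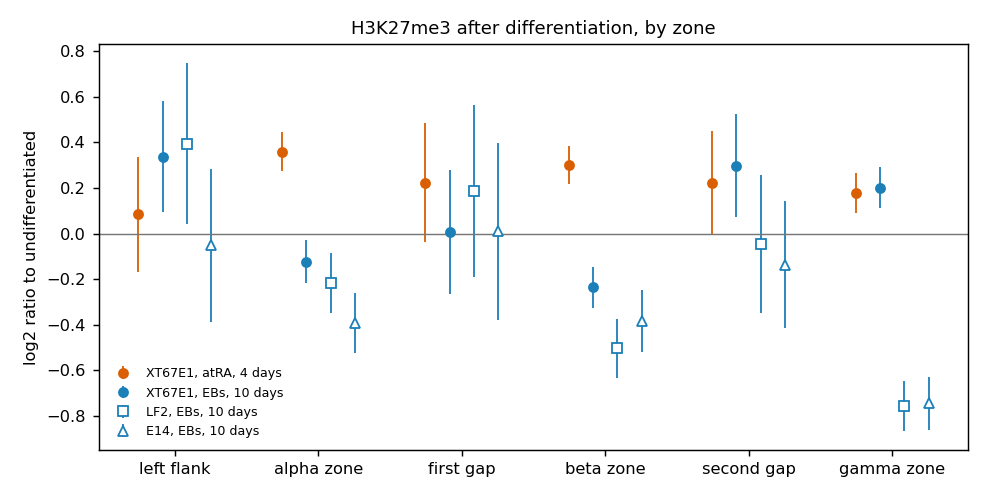
Log2 ratio of H3K27me3 to the undifferentiated library of the same line for each zone; each point is a pair of libraries and bars are exact 95% intervals for counting error. The gamma points lie at 0.20 for XT67E1, -0.76 for LF2 and -0.74 for E14, while the EB points of the alpha and beta zones lie below 0 in all 3 lines.

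Rich bins elsewhere showed how far these falls were shared by other marked regions. In LF2 the median log2 ratio was -0.31 over the 4845 rich bins outside the interval and -0.64 over the 25 inside, where 23 of 25 were below 0 against 79.2% outside. In E14 the outside median was 0.18 and the inside median -0.39, with 25 of 25 below 0 against 33.9% outside. In XT67E1 the medians were 0.04 outside and -0.06 inside, with 14 of 25 below 0 against 45.5% outside. By zone, the XT67E1 medians were -0.26 for the 7 alpha bins, -0.07 for the 7 beta bins and 0.16 for the 11 gamma bins. The 11 gamma bins were all below 0 in LF2 and E14, with medians of -0.84 and -0.69.

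In single bins, XT67E1 EBs had 4 of 105 tested bins called higher by 2-fold (2.51% of all bins) and 0 lower (0.762%). One was in the gamma zone, chr18:37940001-37950000, where H3K27me3 rose from 13 to 46 reads, and 3 were in the second gap. LF2 EBs had 2 of 84 higher (4.69%) and 6 lower (2.39%), of which 4 were in the gamma zone and 2 in the beta zone. E14 EBs had 0 of 85 higher (2.06%) and 9 lower (2.96%), of which 6 were in the gamma zone, 2 in the beta zone and 1 in the alpha zone. In LF2 and E14 the lower bins thus made up a larger share of the interval than of all bins. A call depends on the number of reads, and all bins include bins poor in H3K27me3. The share called among rich bins elsewhere was not computed.

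The bin chr18:37970001-37980000 near the end of the gamma zone was among the lower bins of both 129/Ola lines. It held 148 reads in undifferentiated LF2 and 63 in its EBs (log2 ratio -1.20, -1.66 to -0.78), and 134 and 44 in E14 (-1.59, -2.14 to -1.11). In XT67E1 it held 152 reads undifferentiated, 151 after atRA and 195 in EBs. The bin with the lowest log2 ratio in E14 was chr18:37990001-38000000, with 49 reads before and 11 after (-2.06, -3.25 to -1.20). It held 28 and 17 reads in LF2 and 36 and 56 in XT67E1.

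Of the 19 gamma bins 18 were below 0 in LF2 and 18 in E14, against 43.2% and 54.9% of all bins tested. For rich bins outside the interval the shares were 79.2% and 33.9%. The LF2 exception was chr18:37940001-37950000, between the blocks, where LF2 rose from 8 to 22 reads (1.37, 0.26 to 2.85), as XT67E1 did from 13 to 46 (1.76, 0.92 to 2.85). E14 held 23 and 12 reads there. In the beta zone, the LF2 bin chr18:37640001-37650000 fell from 102 to 49 reads (-1.02, -1.56 to -0.53), within the longest beta block. The E14 bin chr18:37630001-37640000, next to that block, fell from 55 to 23 (-1.23, -2.03 to -0.53).

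Over the 3 lines together, limma was fitted to log2 RPM of 227429 bins with the line as a block. At a Benjamini-Hochberg adjusted p of 0.05 it called 212 bins higher in EBs (0.0932% of all bins) and 91 lower (0.04%). None of the 92 bins tested in the interval was called. At an unadjusted p below 0.05 there were 2 higher (4.34% of all bins) and 13 lower (3.43%), and limma with voom weights also called 0. Limma moderated the spread between the 3 lines at each bin towards a trend over all bins, with 43.3 degrees of freedom in total. The p-values and SEs therefore rest mostly on that trend and little on how the 3 lines differ at a given bin. The lines are not replicate cultures of one line.

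The smallest p-values of the interval by limma were in the beta zone. At chr18:37460001-37470000 the reads went from 132 to 102 in XT67E1, from 69 to 42 in LF2 and from 67 to 29 in E14. The log2 change was -0.74 (SE 0.24, limma adjusted p = 0.298), lower in 3 of 3 lines. At chr18:37630001-37640000 it was -0.73 (SE 0.24, limma adjusted p = 0.323), also lower in 3 of 3 lines. At chr18:37970001-37980000 in the gamma zone it was -0.81 (SE 0.28, limma adjusted p = 0.370), lower in 2 of 3 lines.

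Without one line, limma called 1 bin in 2 of the 3 cases. Without XT67E1, the gamma bin chr18:37990001-38000000 was called lower, with a log2 change of -1.37 (SE 0.32, limma adjusted p = 0.0142). Without E14, the gamma bin chr18:37940001-37950000 was called higher, with a log2 change of 1.57 (SE 0.37, limma adjusted p = 0.0161). Calls over all bins were also more frequent than in the full fit, with 416 of 125265 bins tested without XT67E1 and 621 of 194669 without E14, against 303 of 227429.

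By direction alone, 68 of the 92 tested bins had a limma log2 change below 0, against 45.9% of all bins, and their median was -0.22 against 0.03. The beta zone had 16 of 24 bins lower in 3 of 3 lines, where 12.6% of all bins were. In the alpha zone it was 8 of 22 and in the gamma zone 4 of 19. Higher in 3 of 3 lines were 8 of the 92 bins, against 15.3% of all bins, and 0 of them lay in the family zones. Neighbouring bins share a block and a library, so these counts are a description. The shares of all bins include bins poor in H3K27me3. For rich bins elsewhere the share lower in 3 of 3 lines was not computed.

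Summed over the second gap, between the beta and gamma zones, H3K4me3 was lower in both differentiated states. Its level went from 7.88 RPM per 10 kb in undifferentiated XT67E1 to 6.39 after atRA and 5.28 in EBs. The log2 ratios were -0.30 (95% interval -0.59 to -0.01) and -0.58 (-0.89 to -0.27), both against the same undifferentiated library. The median 10 kb bin of the gap rose instead, from 1.85 RPM to 2.79 after atRA and 2.78 in EBs. Of the gap's 221, 179 and 148 reads, chr18:37778001-37780000 held 48, 5 and 6. A further 24, 5 and 8 lay in chr18:37814001-37816000, so the sums do not describe a fall along the whole gap. The left flank went from 5.33 to 6.80 after atRA (0.35, 0.05 to 0.66) and 6.39 in EBs (0.26, -0.05 to 0.57). In 2 kb bins, 10 of the interval could be tested after atRA, of which 0 were higher (4.81% of all bins) and 2 lower (12.1%). In EBs 8 could be tested, of which 0 were higher (2.82%) and 2 lower (13%). With so few bins tested, 2 lower bins lie near the share of all bins, and the pair is described for its reads.

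Both comparisons called the same pair of bins. They share the undifferentiated library, which held most of the reads by which these bins could be tested. A high count in that library would lower both ratios, so the calls are not independent. At chr18:37778001-37780000 there were 48 reads in undifferentiated cells, 5 after atRA and 6 in EBs. The log2 ratios were -3.03 (-4.95 to -1.94) and -2.81 (-4.52 to -1.77). At chr18:37814001-37816000, just before the gamma zone, the reads were 24, 5 and 8, with log2 ratios of -2.06 (-4.01 to -0.84) and -1.47 (-2.95 to -0.38). H3K27me3 stayed below its threshold of 21 reads at both, with 4, 6 and 12 reads at the first and 5, 3 and 7 at the second. The tall neighbour chr18:37802001-37804000 held 75 reads in undifferentiated cells, 76 after atRA and 40 in EBs.

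Scaled to autosomal reads and within the zone limits used here, the H3K4me3 intervals of the 3 family zones included 0. After atRA the log2 ratio was 0.02 in the alpha zone (-0.30 to 0.34), 0.17 in the beta zone (-0.16 to 0.50) and -0.13 in the gamma zone (-0.38 to 0.13). In EBs it was 0.09 (-0.22 to 0.41), 0.27 (-0.06 to 0.60) and -0.21 (-0.47 to 0.05). With the limits 20 kb to the left, which takes in more of the second gap, the gamma ratio in EBs was -0.44 (-0.66 to -0.21). With 3 equal parts of the interval in place of the zones, the last part was -0.28 in EBs (-0.47 to -0.09). The first part was then 0.26 after atRA (0.03 to 0.50) and 0.25 in EBs (0.02 to 0.48). In EBs the values also depended on scaling, and by the median of ratios over bins they were 0.44, 0.62 and 0.14. Scaled to bins of low coverage, the gamma value was -0.34 (-0.60 to -0.08). The direction of H3K4me3 in the gamma zone in EBs therefore differed between scalings.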

How the data were processed

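The deposited files give read intervals as positions only (the unit "other"), 1 row per read, aligned by the authors to mm9 per the submitters' processing notes. Every interval was 200 bp long, no strand was given and no position was repeated within a library. Libraries of one line and mark hold the same number of deposited reads, while those of LF2 and E14 hold fewer than those of XT67E1. Not given in the sources used here are the aligner, the treatment of reads with several matches and the extension rule.

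Interval midpoints were counted in bins of 2 kb and 10 kb and scaled to autosomal reads, with Python 3.11.15, numpy 2.4.6, scipy 1.17.1 and pandas 2.3.3. Levels have exact 95% Poisson intervals and ratios exact conditional binomial intervals, which cover counting error only. A bin was called changed at 2-fold or more (1 read added to each count) with an interval that excluded 1 and at least 20 reads in the pair. H3K27me3 in EBs was tested with limma 3.58.1 in R 4.3.3 (trend, log2 RPM from reads plus 1, bins with at least 60 reads over the 6 libraries, two-sided, Benjamini-Hochberg over all bins). The line was the block, since each line was taken before and after differentiation. Both rules were tested on simulated data. The simulated counts for limma had the same change in all 3 lines, so they do not cover lines that differ in direction, as in the gamma zone.

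Named bins were, per zone, the 3 highest by H3K4me3, the 2 highest and 2 lowest by H3K27me3, up to 5 called in each direction per comparison, and the 3 smallest limma p-values where none was called. Blocks are runs of bins rich in all 7 libraries. Bins lying next to a named bin and the doubly marked bins were named after their values were seen. The interval, zones and thresholds were chosen with earlier results of these data known.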

Additional observations from a re-analysis of the deposited data

Results flagged for a closer look

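H3K27me3 in the gamma zone moved in opposite directions between lines in EBs, which drew attention because each line was compared with its own undifferentiated cells. The log2 ratio was 0.20 in XT67E1, -0.76 in LF2 and -0.74 in E14, with 1 pair of libraries per line. The difference between lines was not tested.

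In XT67E1 the alpha zone went up after atRA (log2 ratio 0.36) and down in EBs (-0.12), and the beta zone did the same (0.30 and -0.24). Treatment and time differ between these states, both ratios share the undifferentiated library, and their difference was not tested.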

How the results depend on the processing

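The H3K27me3 zone ratios kept their sign under every scaling and zone limit tried. H3K4me3 ratios did not: that of the gamma zone in EBs changed sign with the median of ratios, and those of the alpha zone near 0 were -0.04 after atRA and -0.04 in EBs with scaling to bins of low coverage, and -0.02 after atRA when scaled to the rest of chromosome 18. Scaling by the median of ratios gave H3K4me3 log2 ratios in EBs of 0.44 (alpha), 0.62 (beta) and 0.14 (gamma), a shift of 0.35 for all bins. Scaling to autosomal bins of low coverage gave H3K27me3 log2 ratios of 0.50, 0.44 and 0.32 after atRA, -0.23, -0.34 and 0.10 in XT67E1 EBs, and -0.45, -0.73 and -0.99 in LF2 EBs (alpha, beta, gamma). With 3 equal parts of the interval in place of the zones, the middle part was -0.37 in LF2 EBs and the last -0.60 in E14 EBs for H3K27me3. The intervals of its first part included 0 in XT67E1 EBs (-0.07) and LF2 EBs (-0.11). With limits 20 kb to the left the H3K4me3 gamma ratio in EBs was -0.44 (-0.66 to -0.21). The limits moved by 20 kb either way, and scaling to the rest of chromosome 18 (chosen after seeing the data, as was the set of rich bins elsewhere), moved 0 of 18 zone ratios beyond counting error.

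The median H3K27me3 levels over 7 libraries were 8.78, 8.71 and 14.7 RPM per 10 kb (alpha, beta, gamma) and 6.10, 7.53 and 10.8 with equal parts. The beta level was 7.82 with limits 20 kb to the left, and the gamma level 15.5 with limits to the right and 14.03 when scaled to autosomes and X.

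Counts of H3K4me3 bins called after atRA became 1 of 450 higher without a read minimum (0.259% of all bins) and 1 of 25 lower in 10 kb bins (4.44%). In EBs they became 1 higher and 1 lower of 28 in 10 kb bins (2.57% and 3.18%), and 2 higher and 6 lower of 453 without a minimum (0.272% and 0.385%). H3K27me3 bins called after atRA became 11 higher and 3 lower of 219 in 2 kb bins (3.66% and 2.14% of all bins), 6 of 102 higher with low-coverage scaling (1.69%), 0 lower with 5 reads added, and 2 lower with bins moved by 0.5 of a bin. In XT67E1 EBs they became 2 higher with 5 reads added and 6 of 211 lower in 2 kb bins (4.07%). In LF2 EBs they became 1 higher and 29 lower of 132 in 2 kb bins (2.04% and 12.5%) and 10 of 84 lower with low-coverage scaling (5.79%), and in E14 EBs 21 of 112 lower in 2 kb bins (6.17%). The causes were not tested. Doubly marked bins numbered 8, 7 and 5 with H3K4me3 at 3 times the mean and 0, 0 and 0 at 10 times.

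Limma called 0 bins of the interval with no replicate block (without the pairing by line), and 0 to 1 leaving out each line.

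Depth limits H3K4me3 most, and 1 library per group leaves counting error as the sole error within a line.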
